A study of Mus musculus with 12 samples.

Results

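The signal recognition particle (SRP) and its receptor bring ribosomes that make secreted and membrane proteins to the endoplasmic reticulum (ER). The genes described are those of 6 SRP proteins (Srp9, Srp14, Srp19, Srp54a, Srp68 and Srp72) and of the 2 subunits of the SRP receptor (Srpr and Srprb). They were chosen by name, as the entries of the deposited count tables whose Ensembl gene ID maps to one of these symbols, and they are 8 of the 55416 gene IDs listed. All 8 had enough reads to be tested. The cells, E14Tg2a.4 mouse embryonic stem cells, had been altered so that Rpl31, a protein of the large ribosomal subunit, carried a FLAG-TEV-AviTag that allows biotinylation. ALIBi, a proximity-labelling system, biotinylated ribosomes at the ER, and poly-A RNA was sequenced both from the purified biotinylated ribosomes and from the lysates that went into the purification. There were 4 groups of 3 biological replicates: ER-ribosome-bound RNA from cells given an siRNA against Lsg1, ER-ribosome-bound RNA from cells given a scramble siRNA, whole-cell RNA from cells given the Lsg1 siRNA, and whole-cell RNA from cells given the scramble siRNA. The tagged Rpl31 and the labelling system were common to all groups, and every culture had received an siRNA. Lsg1 is a GTPase that acts in the last, cytoplasmic steps of large-subunit maturation.

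SRP is a complex of proteins on a short noncoding RNA scaffold, 7SL RNA. It binds the signal sequence of a growing protein as it leaves the ribosome, slows translation, and hands the ribosome to the receptor on the ER membrane, after which the Sec61 channel takes over. SRP itself works in the cytosol, whereas the receptor sits at the ER membrane. The RNA genes of the particle, Rn7s1 and Rn7s2, are not analysed here.

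The libraries held 38092178 to 56522114 reads assigned to genes. Values below are CPM, the reads of a gene scaled to the size of its library, after TMM correction of the library sizes, and log2 folds are those of edgeR's quasi-likelihood model. A CPM in ER-bound RNA is a share of the reads from the purified ribosomes, and does not give the share of a gene's mRNA that was at the ER. In these bulk samples, fewer cells of a type and less RNA per cell cannot be told apart. In the check of the siRNA, Lsg1 had 35.4, 42.5 and 52.5 CPM in ER-bound RNA with Lsg1 siRNA, against 142.5, 149 and 151 CPM with scramble siRNA. In whole-cell RNA it had 83.5, 96.7 and 114 CPM with Lsg1 siRNA, against 136, 144 and 149 CPM with scramble siRNA. The groups did not overlap in either fraction, and the whole-cell difference did not pass edgeR's test over all genes (log2 fold -0.55, SE 0.10, adjusted p = 0.245), whereas the ER-bound one did (-1.77, SE 0.11, adjusted p = 6.28e-08). One unnamed gene, ENSMUSG00000119584, took 18469 CPM in ER-bound scramble replicate 3 and 15604 CPM in whole-cell Lsg1 replicate 3, against 1115 to 4143 CPM in the other 10 libraries, and no receptor call changed when both libraries were left out. All 8 markers of embryonic stem cells were present in every library. Markers of fibroblasts or feeders summed to 49.6 to 55.8 CPM (Lsg1 siRNA) and 45.4 to 53.3 CPM (scramble siRNA) in ER-bound RNA, and to 24.9 to 26.9 CPM and 25.4 to 27.9 CPM in whole-cell RNA. Most of this came from Thy1, with group means of 46.0 and 41.7 CPM in ER-bound RNA and 20.86 and 21.03 CPM in whole-cell RNA, while Postn was at or near 0. Markers of primitive endoderm summed to at most 8.18 CPM in any library. The part of these markers in the results below was not tested.

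Srp54, the GTPase that holds the signal sequence, has several near-identical genes in the mouse, and this limits what its counts mean. In the GENCODE annotation of the GRCm38 assembly, the coding sequence of Srp54a (chr12:55080262-55115367, plus strand, ENSMUSG00000073079) is 1512 bases long. It has 0 differences from that of Srp54b and 6 from that of Srp54c. The substitutions from Srp54a to Srp54c, with positions counted from 1 at the first coding base, are T501C, T945C, G946A, T965G, A1197T and G1249A. The window below, coding bases 931 to 990 on the plus strand of chromosome 12, holds 3 of these positions, marked by capitals. It is shown because such bases set Srp54c apart from the other copies. Srp54a and Srp54b are identical there, so these bases cannot tell a read of Srp54a from a read of Srp54b.
Srp54a: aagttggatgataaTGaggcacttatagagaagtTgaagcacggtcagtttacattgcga
Srp54b: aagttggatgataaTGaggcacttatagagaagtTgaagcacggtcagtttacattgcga
Srp54c: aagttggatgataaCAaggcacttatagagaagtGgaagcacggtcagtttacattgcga
Of all 150-base windows (the length of a read) of the Srp54a transcript, 70.5% occur unchanged in Srp54b or Srp54c. The share of windows found in another copy was 96.9% for Srp54b and 85.1% for Srp54c. The deposited tables gave Srp54b 0 or 1 read per library. Few of its reads could be placed in it alone, so this count does not show whether it was expressed. Srp54c averaged 23.6 CPM in ER-bound RNA with Lsg1 siRNA, 24.9 CPM in ER-bound RNA with scramble siRNA, 27.3 CPM in whole-cell RNA with Lsg1 siRNA and 27.5 CPM in whole-cell RNA with scramble siRNA. The level of Srp54a alone is therefore uncertain, and the sum of the 3 copies is given beside it. That sum leaves out reads that fit several copies equally well, so it is not the whole Srp54 level. The assembly is of another mouse strain than the one the cells came from, and reads that aligned to several places were not counted.

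The other members share less sequence with other genes. For Srp14, Srp19, Srp68 and Srp72 no 150-base window of the transcript occurs in another annotated gene. The share was 8.54% for Srp9 (with the pseudogene Gm13736), 2.50% for Srpr (with Gm6733) and 25.4% for Srprb. The Srprb windows lie in Gm20425, an overlapping model on the same strand, and how reads there were counted is not known here. On the opposite strand, a pseudogene (Gm17968) overlaps 14.1% of the exon bases of Srp9, and Tirap and Fam118b overlap 1.16% and 1.49% of those of Srpr. The libraries were made with a strand-specific kit, and the strand setting used for counting is not given in the sources used here.

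Compared per length, the members' mRNAs were present at unequal levels, and how unequal depended on the length used. In whole-cell RNA with scramble siRNA, CPM per kilobase of merged exons was highest for Srp14, one of the pair that slows elongation, at 75.7 ± 1.249 (SD, n = 3). Next were Srp68 (63.4 ± 1.28), a scaffold protein of the signal-binding domain, and Srpr (63.2 ± 2.41), the receptor subunit that pairs with Srp54. These neighbours did not differ beyond their spread. Srp72, the partner of Srp68, had 33.6 ± 0.270, Srp19, which helps the particle assemble, 18.7 ± 0.227, Srp9, the partner of Srp14, 15.2 ± 0.116, and Srprb, the receptor's membrane anchor, 11.9 ± 0.188 CPM per kilobase. Srp54a was lowest at 2.28 ± 0.229 CPM per kilobase, within the limit set by its copies. The order below Srp14 and above Srprb depended on the length used: per kilobase of the longest protein-coding transcript, Srp19 came second with 77.5 CPM, above Srpr (71.1 CPM) and Srp68 (68.7 CPM), and Srp9 (61.7 CPM) stood above Srp72 (52.9 CPM), while Srp14 (113 CPM) stayed first and Srprb (16.7 CPM) and Srp54a (2.696 CPM) stayed last. By that length the particle mRNAs other than Srp54a spanned 52.9 to 113 CPM per kilobase, against 15.2 to 75.7 per kilobase of merged exons. In whole-cell RNA with Lsg1 siRNA, Srp14 was likewise highest (78.5 ± 0.959 CPM per kilobase of merged exons) and Srp54a lowest (2.23 ± 0.0718). In ER-bound RNA, Srpr stood second and above Srp68, with 76.7 ± 0.519 against 54.6 ± 1.78 CPM per kilobase with Lsg1 siRNA, and 87.5 ± 2.50 against 53.1 ± 0.338 with scramble siRNA.

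**Figure D1:**
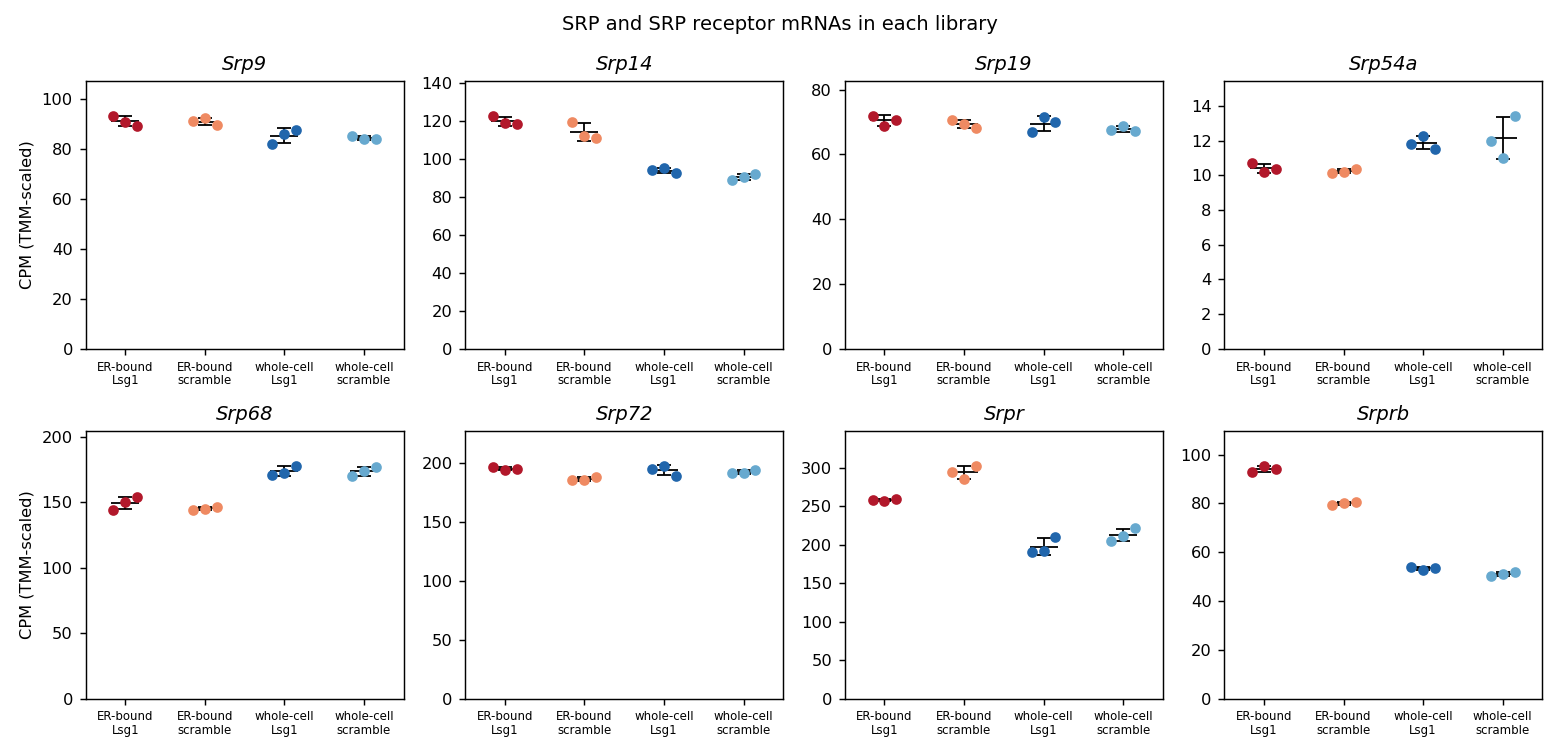
TMM-scaled CPM (vertical axis, each panel from 0) of the 8 genes in the 12 libraries, 1 point per library with the mean and SD of 3 replicates; groups from left to right are ER-bound Lsg1, ER-bound scramble, whole-cell Lsg1 and whole-cell scramble. The ER-bound libraries lie above the whole-cell libraries for Srp9, Srp14, Srpr and Srprb and below them for Srp54a and Srp68. Within ER-bound RNA the Lsg1 siRNA points of Srpr lie below, and those of Srprb above, the scramble points.

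The receptor mRNAs were the members with the highest ER-bound over whole-cell folds in cells given the scramble siRNA. Srprb (chr9:103188032-103202137, minus strand, ENSMUSG00000032553) encodes the subunit that spans the ER membrane and anchors the receptor there. It had 79.4, 80.2 and 80.7 CPM in ER-bound RNA, against 50.4, 51.3 and 52.0 CPM in whole-cell RNA. The groups were well apart, and the log2 fold was 0.64 (SE 0.03, 95% interval 0.58 to 0.71, adjusted p = 4.35e-12 by edgeR, as all adjusted p-values below, over all genes tested). This fold lay above that of 87.7% of the 17702 genes tested. Srpr (chr9:35200175-35247973, plus strand, ENSMUSG00000032042; also called Srpra) encodes the subunit whose GTPase domain pairs with that of Srp54. It had 295, 286 and 303 CPM in ER-bound RNA, against 205, 211 and 221 CPM in whole-cell RNA, again without overlap. Its log2 fold was 0.47 (SE 0.04, adjusted p = 5.77e-09 by edgeR), above that of 81.7% of genes tested.

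The 6 particle proteins were divided. Their log2 folds in scramble cells ran between -0.26 and 0.33 with a median of -0.01, beside a median of 0.03 over all genes tested. Srp14 (chr2:118475850-118479711, minus strand, ENSMUSG00000009549), which binds the Alu end of the RNA with Srp9, was higher in ER-bound RNA, with 119.5, 112 and 111 CPM against 89.0, 90.5 and 92.0 CPM in whole-cell RNA (log2 fold 0.33, SE 0.03, adjusted p = 1.15e-07 by edgeR). Its partner Srp9 (chr1:182124737-182132407, plus strand, ENSMUSG00000026511) had 91.1, 92.2 and 89.6 CPM in ER-bound RNA, against 85.1, 84.1 and 83.9 CPM in whole-cell RNA. These groups did not overlap either, but the log2 fold was only 0.11 (SE 0.03, adjusted p = 0.00875 by edgeR), and the call was lost without whole-cell scramble replicate 1 (adjusted p = 0.0545) or ER-bound scramble replicate 2 (adjusted p = 0.0780). The difference between the folds of Srp14 and Srp9 was not tested.

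Srp68 and Srp54a were lower in ER-bound RNA. Srp68 (chr11:116245166-116274217, minus strand, ENSMUSG00000020780) had 144, 145 and 146 CPM in ER-bound RNA, against 170.0, 174 and 177 CPM in whole-cell RNA (log2 fold -0.26, SE 0.03, adjusted p = 1.12e-06 by edgeR). Every ER-bound library lay below every whole-cell library. Its partner Srp72 (chr5:76974683-76999937, plus strand, ENSMUSG00000036323) had 186, 185 and 188 CPM in ER-bound RNA, against 191, 191 and 194 CPM in whole-cell RNA; the groups did not overlap, but the log2 fold of -0.04 (SE 0.03, 95% interval -0.10 to 0.01) did not pass the test (adjusted p = 0.175 by edgeR). With a replicate block and the GC and length offset described below it just passed (-0.05, adjusted p = 0.0494 by edgeR). Srp54a had 10.1, 10.2 and 10.4 CPM in ER-bound RNA, against 11.98, 10.99 and 13.4 CPM in whole-cell RNA (log2 fold -0.25, SE 0.07, adjusted p = 0.00352 by edgeR). The sum of its 3 copies went the same way, with a mean of 35.1 ± 0.927 CPM in ER-bound RNA and 39.6 ± 1.90 CPM in whole-cell RNA (SD, n = 3 each; log2 fold -0.18, adjusted p = 0.00100 by edgeR). Srp19 (chr18:34330847-34336599, plus strand, ENSMUSG00000014504) had 70.7, 69.2 and 68.1 CPM in ER-bound RNA, against 67.6, 68.8 and 67.2 CPM in whole-cell RNA. The ranges overlapped, and the log2 fold of 0.03 (SE 0.03) did not pass the test (adjusted p = 0.451 by edgeR).

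In all, 4 of the 8 members were higher and 2 lower in ER-bound RNA of scramble cells, while 58.9% of all genes tested were called, 29.8% higher and 29.1% lower. The groups of 7 of the 8 members did not overlap, beside 63.9% of all genes. The counts of calls thus lay near the background of this comparison. The sizes did too for most members: 6 of the 8 folds lay above those of 24.5% to 75.1% of all genes, and the members' median log2 fold was 0.07 beside 0.03 over all genes. An offset that removes trends with GC content and transcript length changed several sizes: Srp14 fell to a log2 fold of 0.13 (adjusted p = 8.84e-04 by edgeR), Srp68 to -0.46 (adjusted p = 7.51e-11 by edgeR) and Srp54a lost its call (-0.10, adjusted p = 0.191 by edgeR). Srpr (0.37) and Srprb (0.57) stayed called under it.

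In cells given the Lsg1 siRNA, which share no library with the comparison above, the same 4 members were higher and the same 2 lower (60.3% of all genes called, 30.6% higher and 29.8% lower). Srprb had 92.8, 95.5 and 94.2 CPM in ER-bound RNA, against 53.8, 52.7 and 53.5 CPM in whole-cell RNA (log2 fold 0.82, SE 0.03, adjusted p = 1.82e-13 by edgeR). Srpr had 258, 256 and 259.6 CPM in ER-bound RNA, against 189.9, 192 and 209.7 CPM in whole-cell RNA (log2 fold 0.39, SE 0.04, adjusted p = 6.75e-08 by edgeR). In neither gene did the groups overlap. Srp14 had 123, 119 and 118 CPM in ER-bound RNA, against 93.9, 94.9 and 92.6 CPM in whole-cell RNA (log2 fold 0.35, adjusted p = 5.25e-08 by edgeR). Srp68 had 144, 150.4 and 154 CPM in ER-bound RNA, against 171, 172 and 178 CPM in whole-cell RNA (log2 fold -0.22, adjusted p = 8.69e-06 by edgeR). With the offset for GC content and length, Srp14 had a log2 fold of 0.17 and Srp68 of -0.42, both still called.

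Srp54a was also lower in ER-bound RNA, with a fold close to that of Srp68, and Srp9, Srp19 and Srp72 had log2 folds between 0.01 and 0.09. Srp54a had 10.7, 10.2 and 10.3 CPM in ER-bound RNA, against 11.8, 12.3 and 11.5 CPM in whole-cell RNA (log2 fold -0.19, adjusted p = 0.0188 by edgeR). That call was lost without ER-bound Lsg1 replicate 2 (adjusted p = 0.0545), without whole-cell Lsg1 replicate 2 (0.0700) and with the GC and length offset (-0.04, adjusted p = 0.588), whereas the sum of the copies had a log2 fold of -0.20 (adjusted p = 2.49e-04 by edgeR). Srp9 had 93.2, 90.8 and 89.2 CPM in ER-bound RNA, against 82.0, 86.1 and 87.8 CPM in whole-cell RNA (log2 fold 0.09, adjusted p = 0.0207 by edgeR). The groups did not overlap, but 14 of the 25 alternatives ended the call, among them leaving out whole-cell Lsg1 replicate 1 (log2 fold 0.04, adjusted p = 0.355). Srp72 (194 to 196 against 189 to 197 CPM) and Srp19 (68.8 to 71.9 against 66.9 to 71.5 CPM) overlapped between the fractions, with log2 folds of 0.01 and 0.02 (adjusted p = 0.775 and 0.645 by edgeR). The groups of 6 members did not overlap, beside 64.4% of all genes.

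**Figure D2:**
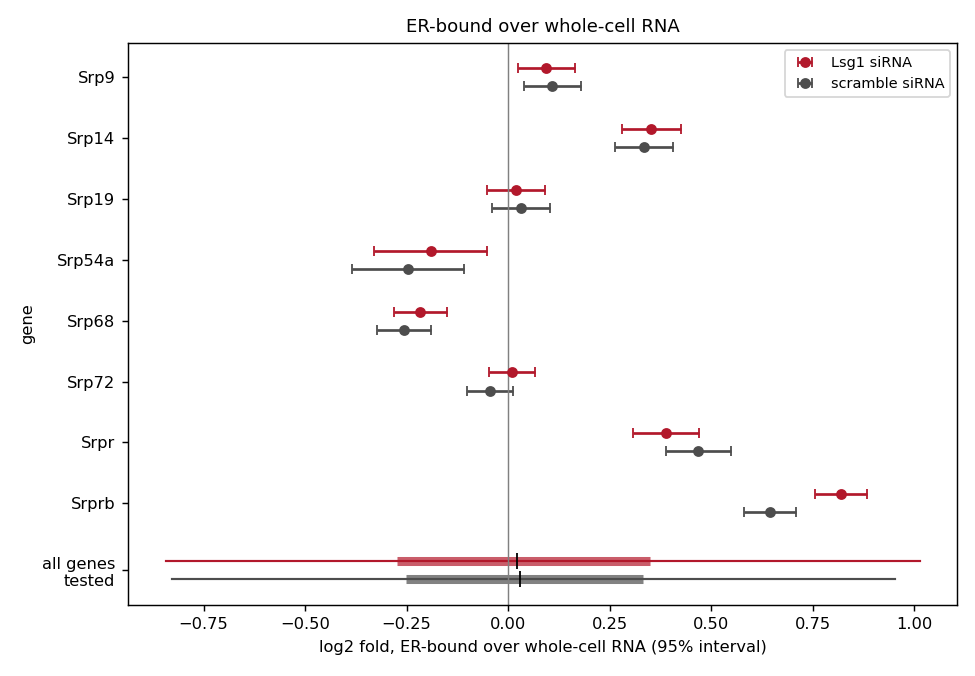
Log2 fold of ER-bound over whole-cell RNA (horizontal axis) with its 95% interval for each gene, in Lsg1 siRNA cells (red, upper) and scramble siRNA cells (grey, lower), n = 3 per group. The bottom bars show all 17702 genes tested, with the median (tick), the middle 50% (thick) and the middle 90% (thin). Srpr and Srprb lie to the right of the other members in both kinds of cell, and Srp54a and Srp68 to the left of 0.

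Because each ER-bound library came from the same lysate as a whole-cell library, the fold can also be read lysate by lysate. Srprb had log2 ratios of 0.79, 0.86 and 0.82 in the Lsg1 siRNA lysates, against 0.66, 0.65 and 0.63 in the scramble siRNA lysates. These did not overlap, but the test of this difference, given below, did not pass (adjusted p = 0.400 by edgeR). The share of all genes without overlap in these ratios was not determined. Srpr had 0.44, 0.42 and 0.31 in the Lsg1 siRNA lysates, against 0.52, 0.43 and 0.45 in the scramble siRNA lysates, and the ranges overlapped. Srp14 (0.32 to 0.38 against 0.27 to 0.43) and Srp9 (0.02 to 0.18 against 0.10 to 0.13) were positive in all 6 lysates. Srp68 (-0.24 to -0.20 against -0.28 to -0.24) and Srp54a (-0.27 to -0.14 against -0.37 to -0.11) were negative in all 6. Srpr and Srprb were positive throughout as well, whereas Srp19 and Srp72 changed sign between lysates. The share of all genes that kept their sign in every lysate was not determined.

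Within ER-bound RNA, the 2 receptor mRNAs changed in opposite directions with the Lsg1 siRNA, and none of the 6 particle proteins passed the test. Srprb rose, with the 92.8, 95.5 and 94.2 CPM given above for the Lsg1 siRNA, against 79.4, 80.2 and 80.7 CPM for the scramble siRNA (1.18-fold, log2 fold 0.23, SE 0.03, 95% interval 0.17 to 0.30, adjusted p = 2.47e-04 by edgeR). Srpr fell, with 258, 256 and 259.6 CPM for the Lsg1 siRNA, against 295, 286 and 303 CPM for the scramble siRNA (0.876-fold, log2 fold -0.19, SE 0.04, 95% interval -0.27 to -0.11, adjusted p = 0.00791 by edgeR). Neither gene's groups overlapped. Without ER-bound Lsg1 replicate 2 the call of Srpr was lost at nearly the same size (log2 fold -0.19, adjusted p = 0.0513 by edgeR). The 2 members called of 8 stand beside 4.01% of all genes tested, 2.63% higher and 1.38% lower. The groups of 3 members did not overlap (Srp72, Srpr and Srprb), beside 21.5% of all genes. The log2 folds of the particle proteins ran between 0.00 and 0.07, and that of Srp72 was 0.07 (SE 0.03, adjusted p = 0.203 by edgeR). Summed fibroblast markers overlapped between the 2 siRNA groups of ER-bound RNA. The 8 embryonic stem cell markers summed to 9615 to 10208 CPM there with Lsg1 siRNA, against 9786 to 10512 CPM with scramble siRNA, which overlapped. Of these 8, 2 fell and 0 rose: Nanog (log2 fold -0.18, adjusted p = 0.0298 by edgeR) and Dppa5a (-0.11, adjusted p = 0.0361 by edgeR). The part of these markers in the receptor changes was not tested.

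In whole-cell RNA, none of the members was called between the siRNAs, and neither was any of the 17702 genes (0.00%) by edgeR. At an unadjusted p under 0.05 there were 731 genes, 1 of them a member, Srpr; DESeq2 called 5 genes and limma-voom 0, none of them a member. Srpr had 189.9, 192 and 209.7 CPM with the Lsg1 siRNA, against 205, 211 and 221 CPM with the scramble siRNA, and 1 Lsg1 library lay inside the scramble range (log2 fold -0.11, SE 0.04, 95% interval -0.19 to -0.03, adjusted p = 1.00 by edgeR). Srprb had 53.8, 52.7 and 53.5 CPM with the Lsg1 siRNA, against 50.4, 51.3 and 52.0 CPM with the scramble siRNA (log2 fold 0.06, SE 0.03, 95% interval -0.01 to 0.12, adjusted p = 1.00 by edgeR). Its groups, and those of Srp14, did not overlap, beside 10.4% of all genes. The 6 particle proteins had log2 folds between -0.03 and 0.05.

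**Figure D3:**
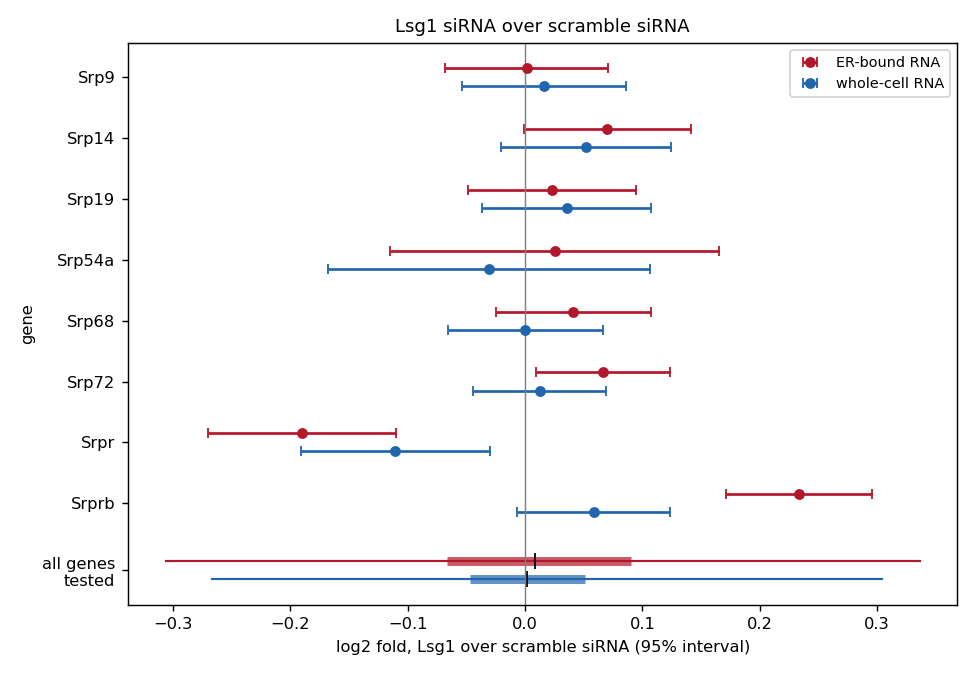
Log2 fold of Lsg1 over scramble siRNA (horizontal axis) with its 95% interval for each gene, in ER-bound RNA (red, upper) and whole-cell RNA (blue, lower), n = 3 per group. The bottom bars show the median, the middle 50% and the middle 90% of all 17702 genes tested. Srprb in ER-bound RNA lies at 0.23 and Srpr at -0.19, while the particle proteins lie between -0.03 and 0.07 in both fractions.

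Whether the siRNA changed the ER-bound over whole-cell fold was tested as the difference between the 2 folds, which draws on the same libraries as the comparisons above. No member passed, and 4 genes (0.0226% of those tested, 0.0113% with a higher and 0.0113% with a lower fold under Lsg1 siRNA) did by edgeR, with 1219 genes at an unadjusted p under 0.05; DESeq2 called 18 genes and limma-voom 5, none of them a member. Srprb had a difference of 0.18 on the log2 scale (SE 0.04, 95% interval 0.08 to 0.27, unadjusted p = 7.48e-04, adjusted p = 0.400 by edgeR), with adjusted p between 0.0656 and 0.869 over its alternatives. Srpr had a difference of -0.08 (SE 0.05, 95% interval -0.19 to 0.03, adjusted p = 0.871 by edgeR). The changes seen in ER-bound RNA are therefore not shown to differ from those in whole-cell RNA. The siRNA target itself did pass (Lsg1, difference -1.22, SE 0.15, adjusted p = 0.00135 by edgeR).

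The opposite movements of the receptor mRNAs can be read as a ratio within each library. Srprb reads per Srpr read were 0.360, 0.373 and 0.363 in ER-bound RNA with Lsg1 siRNA, against 0.267 to 0.281 with scramble siRNA. In whole-cell RNA they were 0.255 to 0.283 with Lsg1 siRNA, against 0.235 to 0.245 with scramble siRNA. The group means were 0.365 ± 0.00687, 0.272 ± 0.00741, 0.271 ± 0.0143 and 0.241 ± 0.00544 (SD, n = 3 each), for ER-bound Lsg1, ER-bound scramble, whole-cell Lsg1 and whole-cell scramble libraries. Per kilobase of the longest protein-coding transcript the ratios were 0.357, 0.266, 0.265 and 0.235 in the same order of groups. Srpr mRNA thus exceeded Srprb mRNA in every group, and the siRNA groups did not overlap in either fraction. The ratio combines genes already seen to move in opposite directions in ER-bound RNA, so its separation there restates those changes. In whole-cell RNA neither gene was called between the siRNAs. The share of other gene pairs without overlap was not determined. No test was run on the ratio.

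**Figure D4:**
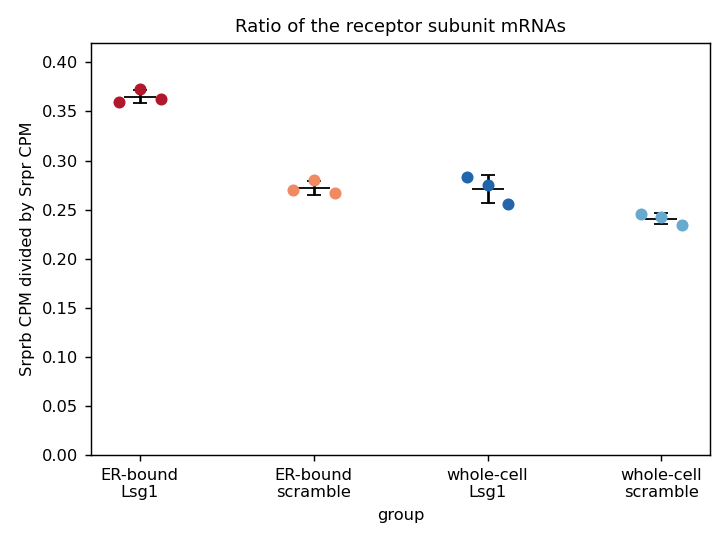
Srprb CPM divided by Srpr CPM (vertical axis, from 0) in each of the 12 libraries, with the mean and SD of 3 replicates per group. The 3 ER-bound libraries with Lsg1 siRNA lie at 0.360 to 0.373, above the other 9 libraries, which lie at 0.235 to 0.283.

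The mRNAs of the machinery that acts after SRP were compared with the members through lists of genes. All 12 genes of the Sec61 channel, its partners and the TRAP complex were higher in ER-bound RNA of both Lsg1 siRNA cells (median log2 fold 0.61) and scramble siRNA cells (median 0.55), where the medians over all genes were 0.02 and 0.03. In scramble cells the highest of them was Ssr2, a TRAP subunit, at 1.00 (SE 0.03) and the lowest Sec61g, the small subunit of the channel, at 0.23 (SE 0.04). The receptor subunits, at 0.64 and 0.47, lay inside this range, and all the particle proteins other than Srp14 lay below its lowest value. Among 8 genes of routes that do not need SRP, 7 were higher and 1 lower with Lsg1 siRNA (median 0.40), and 6 were higher and 1 lower with scramble siRNA (median 0.30). In scramble cells their folds spanned Tmem208, a membrane protein of such a route, at 1.05 and Bag6, a cytosolic chaperone of tail-anchored proteins, at -0.50. Of 7 genes whose proteins meet the growing chain at the ribosome, 1 was higher and 3 were lower with either siRNA (median -0.04 in both). Btf3, a subunit of the nascent polypeptide-associated complex, was at 0.25 and Metap1, a methionine aminopeptidase, at -0.32 in scramble cells. Beside these counts of calls, 30.6% of all genes tested were higher and 29.8% lower with Lsg1 siRNA. With scramble siRNA the shares were 29.8% higher and 29.1% lower.

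**Figure D5:**
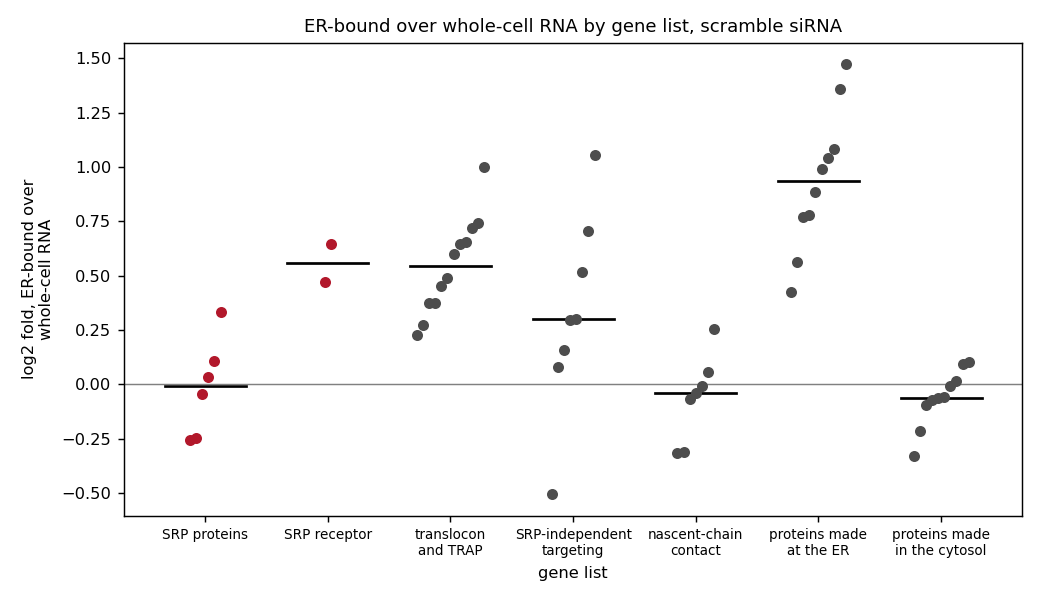
Log2 fold of ER-bound over whole-cell RNA in scramble siRNA cells (vertical axis) for each gene of 7 lists, 1 point per gene, with the list's median as a line; red points are the SRP proteins and the SRP receptor. The receptor genes lie inside the range of the translocon and TRAP genes, and the SRP proteins are spread around 0.

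As a check of the fraction, 10 of 10 proteins made at the ER were higher in ER-bound RNA with either siRNA (median log2 fold 0.94 in both). Of 10 proteins made in the cytosol, 0 were higher and 7 lower with Lsg1 siRNA, and 1 was higher and 4 were lower with scramble siRNA. Over all genes, 30.6% were higher and 29.8% lower with Lsg1 siRNA, and 29.8% higher and 29.1% lower with scramble siRNA. Both lists were chosen with earlier results of these data known, which limits them as a check. Between the siRNAs, 3 of the 10 proteins made at the ER rose in ER-bound RNA: Lamp1 (log2 fold 0.14), Cd81 (0.13) and Pdia3 (0.12), with adjusted p of 0.00448, 0.0179 and 0.0320 by edgeR. The other 7 did not pass, and the list's median was 0.01. Of the 10 proteins made in the cytosol, 1 fell, Aldoa (-0.10, adjusted p = 0.0142 by edgeR), 0 rose, and the median was -0.07. The medians stand beside 0.01 over all genes, of which 2.63% rose and 1.38% fell. The part of these shifts in the rise of Srprb was not tested. Of the lists nearer to SRP, Sec61a1, the channel's pore subunit, rose (log2 fold 0.13, SE 0.03, adjusted p = 0.0239 by edgeR), as did Sgta, which hands tail-anchored proteins to the Get pathway (0.15, SE 0.03, adjusted p = 0.00964 by edgeR). The other 11 translocon and TRAP genes and 7 SRP-independent genes, and all 7 nascent-chain genes, did not pass the test. Srprb, at 0.23, was above the highest of each of these lists, and Srpr, at -0.19, below the lowest (-0.08, for Metap2).

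The genes whose pattern was most like that of a member were sought by the root-mean-square difference of centred log2 CPM over the 12 libraries, among 10625 named genes with a mean of at least 5 CPM. For Srprb these were Susd6 (0.0303), Clptm1 (0.0355) and Tex261 (0.0359), beside a median of 0.399 over all genes. Their log2 folds of ER-bound over whole-cell RNA in scramble cells were 0.69, 0.63 and 0.70, which the choice by pattern holds near that of Srprb, as it does for the genes named next. For Srpr they were Pdgfc (0.0436), Serinc1 (0.0484) and Lrrn4 (0.0541), beside a median of 0.274, with log2 folds in scramble cells of 0.46, 0.43 and 0.45. The nearest genes of the particle proteins were Snx3 for Srp9 (0.0222), Hagh for Srp14 (0.0204), Ift52 for Srp19 (0.0269), Col6a5 for Srp54a (0.0507), D10Wsu102e for Srp68 (0.0160) and Nudt4 for Srp72 (0.0168).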

How the data were processed

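Per the labels, poly-A libraries were made with a directional kit and read from both ends in reads of 150 bases. Per the submitters' processing notes, STAR 2.7.9a, the GRCm39 build, HTSeq 0.11.2 and DESeq2 were used; the sources used here name no annotation release and no strand setting. The deposited files hold raw read counts per gene; summary lines were kept out of library sizes. Their totals exceed the read pairs the labels aimed for; whether both ends of a pair were counted is not known here. Of all reads, 2.65% to 5.26% fell in no feature and 6.09% to 8.23% aligned to several places.

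Names and coordinates came from GENCODE M21 on GRCm38, which matched 52083 IDs (94.0%). Sequences and lengths came from the same release. Counts were scaled by TMM, filtered with filterByExpr (17702 genes left) and tested with edgeR 4.0.16 (quasi-likelihood, 1 mean per group, all 12 libraries, prior count 2, biological coefficient of variation 4.42%, 8 residual degrees of freedom) in R 4.3.3, adjusted by Benjamini-Hochberg over all genes at 0.05, and checked on simulated data. The SD over replicates holds counting error as well as differences between cultures. Alternatives used DESeq2 1.42.0, limma 3.58.1, other scalings and filters, blocks, a GC and length offset (splines with 5 degrees of freedom) and libraries left out; a further transcript length was chosen after seeing the data. The reported values come from the fit without a block. Same-numbered ER-bound and whole-cell libraries share a lysate, per the series' design text, and their deviations from the group means correlated at 0.0821, 0.00241 and 0.0904 (Lsg1 siRNA) and 0.0930, 0.00975 and 0.138 (scramble siRNA); blocks by replicate and by lysate were alternatives. Figures used matplotlib 3.10.9 in Python 3.11.15.

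Members, gene lists and tests were chosen with earlier results of these data known. Named genes are all members, Lsg1, the highest and lowest gene of each list, and the nearest genes by pattern (3 for each receptor subunit, 1 for each particle protein); Sec61a1, Sgta, Metap2, Lamp1, Cd81, Pdia3, Aldoa, Nanog, Dppa5a, Thy1, Postn and ENSMUSG00000119584 were named after their values were seen.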

Additional observations from a re-analysis of the deposited data

How the results depend on the processing

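The refits counted here cover the ER-bound over whole-cell folds of all 8 members. For the siRNA comparisons and the difference of folds they cover Srpr and Srprb only. Over these 22 folds and differences, 544 refits left 494 with the same direction and side of the threshold. Of the others, 24 lost the call, 4 gained it and 22 changed sign, all of the last for Srp19 or Srp72 near 0. For the receptor genes 243 of 244 refits kept both. The exception was Srpr in ER-bound RNA without ER-bound Lsg1 replicate 2, which left 1 member called; over all libraries left out singly that count was 1 to 2. The cause was not tested. Over all refits the ER-bound over whole-cell log2 fold of Srprb was 0.57 to 0.91 and that of Srpr 0.29 to 0.55.

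Srp72 in Lsg1 siRNA cells changed sign with DESeq2 size factors (-0.0041), no filter (-0.00056), DESeq2 (-0.0043), a fit of only the groups compared (-0.0028), both libraries high in ENSMUSG00000119584 left out (-0.034) and single libraries left out (-0.020 to 0.012). Srp19 did so with both high libraries left out (-0.0018) and single libraries left out (-0.034 to 0.029), and Srp72 in scramble cells with library totals (0.034). Library totals moved the all-gene median to 0.11 with either siRNA (0.02 and 0.03 with TMM for Lsg1 and scramble siRNA) and the calls to 6686 higher and 4142 lower (Lsg1 siRNA; 5412 and 5271 with TMM) and 6438 higher and 4144 lower (scramble siRNA; 5279 and 5143 with TMM). Srp19 was called only then (0.11 with either siRNA), Srp72 in Lsg1 siRNA cells was called (0.10) and Srp54a there was not (-0.10).

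Whether replicate numbers pair the siRNA groups is not settled: the labels tie them to no shared culture or day, and deviations of same-numbered libraries correlated at 0.173, 0.00727 and 0.144 in ER-bound RNA and at 0.0370, 0.0391 and 0.0970 in whole-cell RNA, and 4 of 6 libraries matched their own number best in either fraction. The replicate block raised the genes called between siRNAs in ER-bound RNA to 1178, against 710 without it, with 5 in whole-cell RNA and 13 for the difference of folds (10 with a block by lysate), and changed no member's call by itself; together with the GC and length offset it gave Srp72 a call in scramble cells (-0.05, adjusted p = 0.0494 by edgeR). Other counts of all genes beyond 1.5 times the reported ones were 375 (only the groups compared), 1599 (GC and length offset with replicate block) and 290 to 432 (4 single libraries left out) in ER-bound RNA. In whole-cell RNA they were 1 to 26, and for the difference 8 to 59, both highest with no filter. A fit of only the groups compared cannot give the difference of folds, and a lysate block cannot give the siRNA comparisons. Srp54a has the fewest reads (424 to 678 per library), and its interval is the widest among the members.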
